A study of Mus musculus with 12 samples.

Results

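The 7 genes described here are the adipokine genes Adipoq, Lep, Retn, Cfd, Rbp4 and Nrg4, which encode factors that fat cells release into the blood or to neighbouring cells, together with Nnat. They were chosen by name, and all 7 were found by symbol among the 52550 gene IDs of the count table. Nnat (neuronatin) is set beside them as a fat-cell transcript: it is an imprinted gene that encodes a small membrane protein of the endoplasmic reticulum and not a secreted hormone, so the name adipokine fits the other members only. RNA was sequenced from mice in 4 groups of 3 libraries each. BAT AKO was brown adipose tissue, and WAT AKO inguinal white adipose tissue, of mice with adipose-specific knockout of Mcu on the fl/fl background (Mcu fl/fl AKO). BAT control and WAT control were the same tissues of Mcu fl/fl mice, which carry the floxed allele too and are therefore not wild type, although the columns of the deposited tables call them WT. Per the series' design text, both genotypes were on a high-fat diet. Mcu encodes the pore subunit of the mitochondrial calcium uniporter, through which calcium enters the mitochondrial matrix. The sources used here name neither the Cre driver nor the deleted exon, nor the age and sex of the mice. Libraries of a group are numbered as replicates, but no label ties each number to a separate mouse, and the p-values below therefore describe the spread between libraries only.

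Adipokines tell other organs about the state of the fat stores. Leptin, from Lep, reports fat mass to the hypothalamus and restrains feeding, and its transcript is typically most abundant in large, lipid-filled white adipocytes. Adiponectin, from Adipoq, acts through AdipoR receptors to raise insulin sensitivity and fatty acid oxidation, and circulates at lower levels in obesity. Cfd encodes adipsin, the serine protease that cleaves factor B in the alternative complement pathway and that is low in several obese mouse models. Retn encodes resistin, a cysteine-rich hormone that in mice is made by adipocytes and opposes insulin action in the liver. Rbp4 encodes the plasma carrier of retinol, made by liver and by fat. Nrg4 encodes an epidermal growth factor family ligand of the ErbB receptors that is known for its enrichment in brown fat.

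Levels are given as CPM, read counts set to a common library size with TMM factors over all 12 libraries, when a gene is compared between libraries. FPKM, which also divides by gene length, is used when genes are compared with each other. Library totals ran between 15692588 and 18967159 counts. The 7 genes took between 0.141% and 0.183% of all counts in BAT AKO, between 0.144% and 0.16% in BAT control, between 0.887% and 1.01% in WAT AKO and between 0.925% and 0.988% in WAT control. Mcu was at 9.46, 14.6 and 8.28 CPM in BAT AKO and 10.1, 12.5 and 10.9 CPM in WAT AKO, against 24.0 to 28.8 CPM in BAT control and 18.0 to 18.8 CPM in WAT control, so that no AKO library reached the targeted transcript's level in any control library of its depot (edgeR quasi-likelihood adjusted p = 0.202 in BAT and 0.0799 in WAT). The summed level of 8 brown adipocyte markers was 6779 to 8351 CPM in BAT AKO and 6414 to 7485 CPM in BAT control, and 49.0 to 66.5 CPM in WAT AKO and 34.3 to 67.9 CPM in WAT control. The summed level of 12 adipocyte markers was 27279 to 29738, 25125 to 28407, 34679 to 44034 and 39637 to 49998 CPM in the same order of groups. Some libraries held skeletal muscle transcripts: 10 muscle markers summed to 20127 CPM in BAT AKO replicate 2, 2110 CPM in BAT control replicate 1, 21102 CPM in WAT AKO replicate 2, and 12831 and 2854 CPM in WAT control replicates 1 and 2, against 5 to 616 CPM in the other 7 libraries.

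The members lie on 7 different chromosomes, and the 250 bases before the RefSeq start site (GRCm38.p6) were read for all of them. Printed here are Lep, Retn and Nnat, the members with the largest differences between brown and white fat, Nrg4, whose difference ran the other way, and Adipoq, the member with the highest level per length in brown fat. Capitals mark matches to 4 motifs. The TATA box letters TATAA were searched on the gene strand from -45 to -15 relative to the start. The CCAAT box was searched on both strands of the whole window, so that its reverse complement is in capitals too. The letters GGGCGG, a GC box, were searched in the same way. So was the palindrome TTGCGCAA, a form of the C/EBP recognition sequence. No marked matches overlapped each other.
Lep, chr6:29059971-29060220, plus strand: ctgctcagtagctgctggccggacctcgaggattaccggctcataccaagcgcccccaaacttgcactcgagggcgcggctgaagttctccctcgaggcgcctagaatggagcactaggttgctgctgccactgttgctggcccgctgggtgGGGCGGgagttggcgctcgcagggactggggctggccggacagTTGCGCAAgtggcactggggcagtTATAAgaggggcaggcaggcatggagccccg
Retn, chr8:3655520-3655769, plus strand: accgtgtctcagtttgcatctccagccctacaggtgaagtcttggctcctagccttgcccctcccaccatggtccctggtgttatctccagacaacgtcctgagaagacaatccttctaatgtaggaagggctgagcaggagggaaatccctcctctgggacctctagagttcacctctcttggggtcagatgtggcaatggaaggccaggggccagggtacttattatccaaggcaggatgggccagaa
Nnat, chr2:157559828-157560077, plus strand: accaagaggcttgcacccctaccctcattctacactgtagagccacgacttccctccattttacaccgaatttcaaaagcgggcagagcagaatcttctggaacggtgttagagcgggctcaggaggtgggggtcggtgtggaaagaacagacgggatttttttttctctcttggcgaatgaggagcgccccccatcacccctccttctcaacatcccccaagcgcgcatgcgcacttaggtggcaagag
Nrg4, chr9:55283626-55283875, minus strand: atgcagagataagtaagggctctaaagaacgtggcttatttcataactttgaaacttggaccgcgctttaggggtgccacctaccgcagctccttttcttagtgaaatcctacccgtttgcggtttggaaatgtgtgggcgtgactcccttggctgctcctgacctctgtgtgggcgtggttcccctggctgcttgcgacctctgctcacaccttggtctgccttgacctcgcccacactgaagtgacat
Adipoq, chr16:23146286-23146535, plus strand: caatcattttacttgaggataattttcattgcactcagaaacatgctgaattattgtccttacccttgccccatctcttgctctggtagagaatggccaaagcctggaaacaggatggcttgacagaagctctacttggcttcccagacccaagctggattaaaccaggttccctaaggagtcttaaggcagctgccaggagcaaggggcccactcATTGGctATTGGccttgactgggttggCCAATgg
Lep had a TATAA match at -31 to -27, a GGGCGG match at -98 to -93 and the C/EBP palindrome at -55 to -48. TATAA in that window was found in 3.93% of 32851 mouse promoters and the palindrome in 0.164%. Adipoq had 3 CCAAT matches, at -34 to -30, -27 to -23 and -7 to -3, a motif found in 33.8% of promoters. Rbp4 has 2 annotated starts, of which the upstream window held CCAAT and the downstream window held a TATA box and the GC box (32.7% of promoters). In the printed windows of Retn, Nnat and Nrg4, and in that of Cfd, none of these 4 letter strings occurred. The Nrg4 start shown lies inside the annotated gene, which spans chr9:55220222-55326844 on the minus strand with 13 transcripts.

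Per length, Adipoq was the most abundant of the 7 transcripts in brown fat and Cfd was next. In BAT AKO, Adipoq averaged 587 ± 34.7 FPKM and Cfd 380.1 ± 85.6 FPKM, and in BAT control they averaged 534 ± 47.3 and 287 ± 137 FPKM (SD, n = 3 each). The 3-library ranges of Adipoq and Cfd did not overlap in either brown fat group, and both lay above Rbp4. Below Cfd came Rbp4 (96.6 ± 79.8 FPKM in BAT AKO, 83.0 ± 52.8 in BAT control), Nnat (58.6 ± 13.6 and 38.7 ± 4.75), Lep (33.4 ± 8.17 and 70.2 ± 48.1), Retn (21.7 ± 9.41 and 14.7 ± 5.55) and Nrg4 (17.9 ± 1.34 and 13.7 ± 2.1). Of these lower neighbours, the ranges were apart only between Nnat and Lep in BAT AKO and between Nnat and Retn in BAT control. In white fat the order differed between the genotypes at the top. WAT AKO had Cfd first at 3254 ± 291 FPKM, above Adipoq at 1552 ± 166 FPKM in 3 of 3 libraries and with ranges apart. WAT control had Adipoq at 1870 ± 118 FPKM and Cfd at 1518 ± 790.5 FPKM, with overlapping ranges. Ranked among all genes by mean FPKM, Cfd was number 8 in WAT AKO and number 21 in WAT control, and Adipoq was number 19 and number 17. Nnat (784 ± 33.6 FPKM in WAT AKO, 507 ± 258 in WAT control), Lep (571 ± 153 and 1078 ± 368) and Retn (468 ± 46.9 and 399 ± 68.8) followed, then Rbp4 (283 ± 80.8 and 259.8 ± 84.6). Nrg4 was last in all 4 groups, at 10.1 ± 2.03 FPKM in WAT AKO and 8.05 ± 2.56 in WAT control. Its FPKM rests on 6075 merged exon bases over all its transcripts, so a shorter transcript in use would have a higher true level per base.

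**Figure D1:**
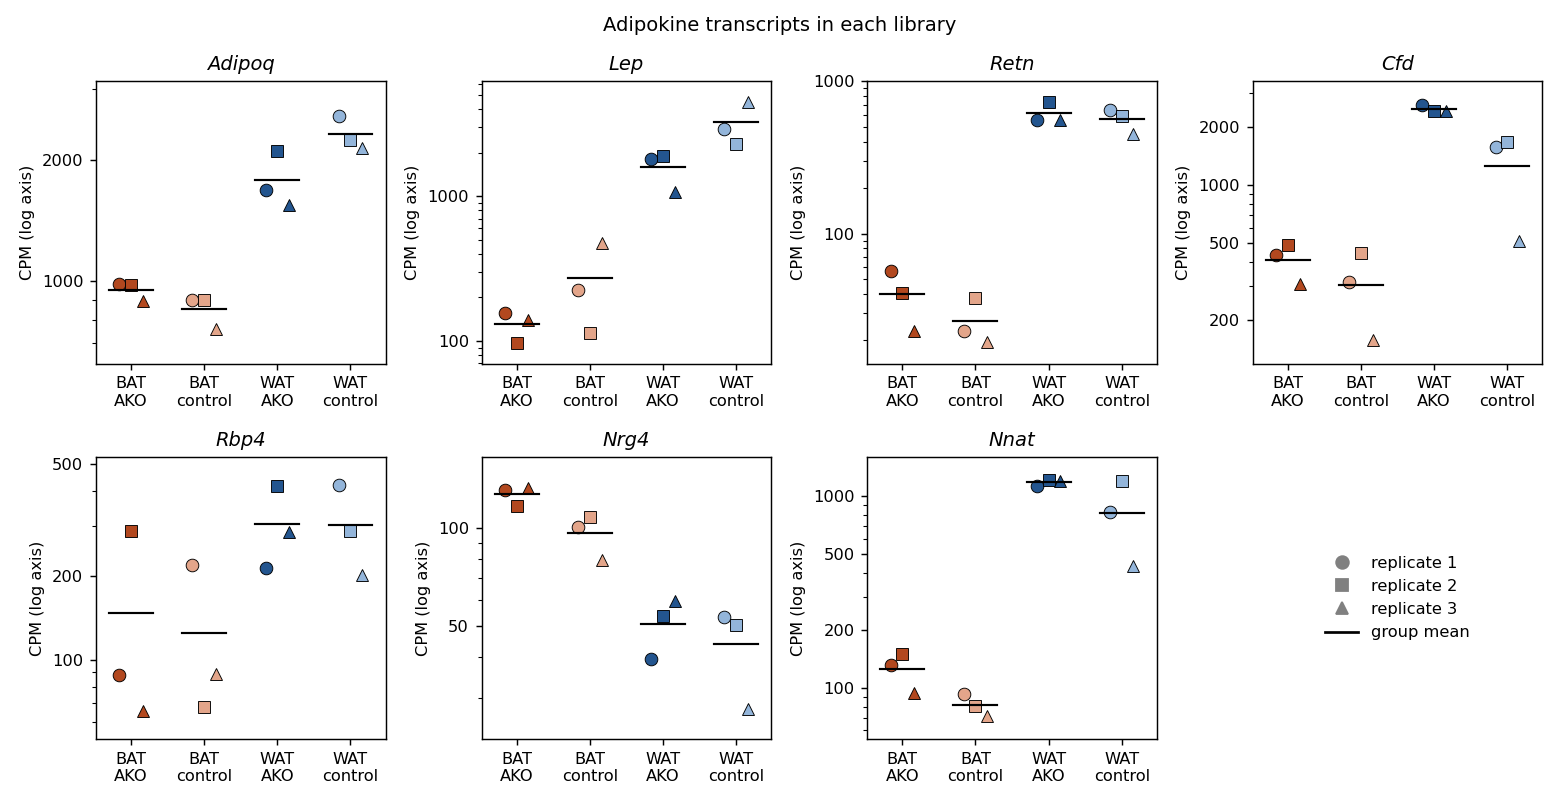
CPM (log axis) of each of the 7 genes in every library, by group, with the replicate number as the symbol and the group mean as a line. Retn, Lep and Nnat are far lower in BAT than in WAT in both genotypes, Nrg4 is higher in BAT, and Rbp4 overlaps between the depots.

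The widest differences among these genes were between the depots. In both genotypes, 5 of the 7 genes were lower in brown than in white fat, Nrg4 was higher, and Rbp4 did not pass the test (edgeR quasi-likelihood test, Benjamini-Hochberg adjusted p over all genes tested under 0.05). Across all genes, 59.3% were called between BAT AKO and WAT AKO (28.8% higher, 30.5% lower) and 50.1% between BAT control and WAT control (24.4% higher, 25.7% lower), so a called gene was common in both comparisons. The median log2 fold change was -2.52 over the 7 genes and -0.02 over all genes tested in AKO, and -2.04 and -0.04 in controls. In bulk tissue, fewer cells of a type and less RNA per cell cannot be told apart, for these and all later differences.

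Retn, the resistin gene at chr8:3655770-3660110 on the plus strand, had the widest gap. It was at 56.8, 40.6 and 22.8 CPM in BAT AKO against 555, 726 and 557 CPM in WAT AKO, and at 23.0, 38.0 and 19.3 CPM in BAT control against 649, 593 and 451 CPM in WAT control. Every brown fat library lay far below every white fat library. The log2 fold change of BAT over WAT was -3.87 ± 0.346 (SE) in AKO and -4.40 ± 0.314 in controls (edgeR adjusted p = 7.15e-05 and 9.22e-05), and BAT control had 4.74% of the mean level of WAT control. Of the 3 resistin-like paralogs, only Retnla passed the filter on low counts. Retnla, also a secreted cysteine-rich protein and a known product of alternatively activated macrophages, was likewise lower in brown fat, at 15.2 to 27.7 CPM in BAT AKO against 148 to 197 CPM in WAT AKO, and 7.51 to 25.4 CPM in BAT control against 172 to 427 CPM in WAT control (log2 -2.90 and -3.95, edgeR adjusted p = 5.33e-05 and 0.00152).

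Lep (chr6:29060220-29073877, plus strand) was at 157, 97.1 and 139 CPM in BAT AKO, against 1804, 1896 and 1063 CPM in WAT AKO. In controls it was at 226, 113 and 475 CPM in BAT, against 2932, 2310 and 4488 CPM in WAT. The depots did not overlap, with a log2 fold change of -3.53 ± 0.295 in AKO and -3.59 ± 0.561 in controls (edgeR adjusted p = 5.17e-05 and 0.00215). The ratio of Lep to Adipoq in FPKM was 0.0410 to 0.0658 in BAT AKO, 0.0518 to 0.257 in BAT control, 0.283 to 0.441 in WAT AKO and 0.425 to 0.863 in WAT control. Even BAT control replicate 3, with the highest ratio of the brown fat libraries, lay below the lowest white fat library. The leptin receptor transcript Lepr showed the same depot direction at far lower levels, at 0.294 to 0.576 CPM in BAT AKO against 8.04 to 12.8 CPM in WAT AKO and at 0.219 to 0.493 CPM in BAT control against 1.60 to 5.35 CPM in WAT control (log2 -4.48 and -3.21, edgeR adjusted p = 2.18e-05 and 0.00632). With 18 counts over the BAT AKO libraries and 13 over the BAT control libraries, Lepr passed the filter on low counts through white fat.

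Nnat (chr2:157560078-157562522, plus strand) was at 132, 151 and 93.6 CPM in BAT AKO against 1135, 1214 and 1202 CPM in WAT AKO. It was at 93.1, 80.8 and 71.4 CPM in BAT control against 829, 1203 and 434 CPM in WAT control. The WAT AKO libraries lay close together, whereas WAT control replicate 3 was far below the other two, yet still above every brown fat library. The log2 fold change was -3.17 ± 0.194 in AKO and -3.34 ± 0.379 in controls (edgeR adjusted p = 1.4e-05 and 0.000575). Nnat lies inside the gene Blcap, which is on the opposite strand and shares 0 exon bases with it, and a predicted miRNA gene on that strand that shares 87 exon bases had 0 counts.

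Adipoq (chr16:23146536-23158028, plus strand) differed less between the depots. It was at 985, 976 and 892 CPM in BAT AKO against 1684, 2103 and 1548 CPM in WAT AKO, and at 896, 897 and 762 CPM in BAT control against 2569, 2239 and 2141 CPM in WAT control. Both genotypes had lower Adipoq in brown fat without overlap, by -0.84 ± 0.151 on the log2 scale in AKO and -1.45 ± 0.139 in controls (edgeR adjusted p = 0.00222 and 0.000287). Adipor1, which encodes an adiponectin receptor, was higher in brown fat, at 234 to 263 CPM in BAT AKO against 135 to 176 CPM in WAT AKO, and at 263 to 276 CPM in BAT control against 151 to 173 CPM in WAT control (log2 0.77 and 0.71, edgeR adjusted p = 0.0023 and 0.0015). Adipor2 passed the test in AKO (log2 0.65, edgeR adjusted p = 0.00149) and had a log2 fold change of 0.54 with an edgeR adjusted p of 0.0704 in controls. Cdh13, the adiponectin-binding T-cadherin, passed in AKO (log2 0.48, edgeR adjusted p = 0.0336, with overlapping libraries) and not in controls (log2 -0.11, adjusted p = 0.697). The AKO direction of Cdh13 depended on the scaling: its mean FPKM was 5.49 in BAT AKO and 5.88 in WAT AKO. Mean FPKM in the same 2 groups was 119 and 113 for Adipor2, and 41.6 and 36.1 for Adipor1.

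Cfd (chr10:79890853-79892655, plus strand) was at 433, 491 and 309 CPM in BAT AKO against 2605, 2411 and 2401 CPM in WAT AKO. In BAT control it was at 314, 444 and 158 CPM, against 1567, 1667 and 517 CPM in WAT control. The WAT AKO libraries were tightly grouped, and in both control groups replicate 3 was the lowest. The log2 fold change was -2.52 ± 0.186 in AKO and -2.04 ± 0.537 in controls (edgeR adjusted p = 3.01e-05 and 0.0179). The call in controls was lost without BAT control replicate 1 (adjusted p = 0.0592) or BAT control replicate 3 (0.0522), and without the most muscle-rich library of each group (0.118). Of the other alternative complement genes, Cfp and Cd55 were called lower in brown fat in both genotypes, beside 30.5% of all genes in AKO and 25.7% in controls, and none was called higher. Cfb, which encodes the factor B that adipsin cleaves, was near the detection limit, with 5 counts over the BAT AKO libraries against 50 over the WAT AKO libraries, and passed the filter on low counts through WAT. Cfp, which encodes properdin, the stabiliser of the pathway's convertase, was at 11.4 to 14.4 CPM in BAT AKO against 65.5 to 84.2 CPM in WAT AKO. C3, the protein that the convertase cleaves, was lower in AKO by -0.61 on the log2 scale (edgeR adjusted p = 0.0147) and did not pass in controls (-0.43, adjusted p = 0.322).

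Nrg4 was the member with higher levels in brown fat. It was at 131, 117 and 133 CPM in BAT AKO against 39.4, 53.4 and 59.5 CPM in WAT AKO, and at 100.5, 108 and 79.8 CPM in BAT control against 53.3, 50.4 and 27.8 CPM in WAT control. No white fat library reached the lowest brown fat library. The log2 fold change was 1.40 ± 0.157 in AKO and 1.12 ± 0.257 in controls (edgeR adjusted p = 0.000215 and 0.0104). Nrg4 shares 368 exon bases with Fbxo22 on the opposite strand, and without a stated strand setting reads there cannot be assigned to either gene. Fbxo22 itself averaged 41.5 ± 5.76 CPM in BAT AKO, 36.2 ± 2.27 in BAT control, 40.4 ± 1.83 in WAT AKO and 40.3 ± 1.30 in WAT control, so it did not show the Nrg4 depot difference. Erbb4, a receptor that binds Nrg4, was also higher in brown fat. It was at 5.44 to 8.14 CPM in BAT AKO against 1.19 to 1.99 CPM in WAT AKO (log2 2.27, edgeR adjusted p = 0.000249). In controls Erbb4 was at 2.55 to 4.58 CPM in BAT against 0.353 to 0.852 CPM in WAT (log2 2.49, edgeR adjusted p = 0.00246). With 39 counts over the WAT control libraries, Erbb4 passed the filter on low counts in that comparison through BAT control. Of the 3 other neuregulins only Nrg2 was tested, and it ran the other way in AKO, at 0.147 to 0.576 CPM in BAT AKO against 0.946 to 1.70 CPM in WAT AKO (log2 -1.91, edgeR adjusted p = 0.00962), with 14 counts over the BAT AKO libraries, so that it passed the filter on low counts through WAT AKO. In controls Nrg2 overlapped between the depots (log2 0.21, edgeR adjusted p = 0.786). Nrg3 had 0 counts in every library and Nrg1 stayed below 1 CPM.

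Rbp4 (chr19:38116629-38125281, minus strand) was at 88.2, 289 and 65.4 CPM in BAT AKO against 213, 420.0 and 287 CPM in WAT AKO. It was at 218, 67.9 and 89.0 CPM in BAT control against 422, 289 and 201 CPM in WAT control. Within each group the library with the most muscle transcripts had the highest Rbp4: BAT AKO replicate 2, BAT control replicate 1, WAT AKO replicate 2 and WAT control replicate 1. The depots overlapped, and the log2 fold change of -0.99 ± 0.553 in AKO and -1.29 ± 0.477 in controls did not pass (edgeR adjusted p = 0.16 and 0.0593). With the replicate numbers as a block in the edgeR fit, Rbp4 was lower in brown fat in both genotypes (-1.24, adjusted p = 0.00657 in AKO and -1.41, adjusted p = 0.00369 in controls). No label pairs the depots, and the most muscle-rich libraries of a genotype had the same number in both depots. Pairing and muscle content therefore cannot be told apart in that fit. Without the most muscle-rich library of each group Rbp4 was lower too, by -1.61 (adjusted p = 0.000177) and -1.62 (adjusted p = 0.0121). DESeq2 called it in controls (adjusted p = 0.00688). Of 12 alternative fits in each genotype, 6 called Rbp4 lower in brown fat in controls and 3 in AKO. With a library left out, its edgeR adjusted p ran from 0.00912 to 0.172 in controls and from 0.00221 to 0.381 in AKO.

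**Figure D2:**
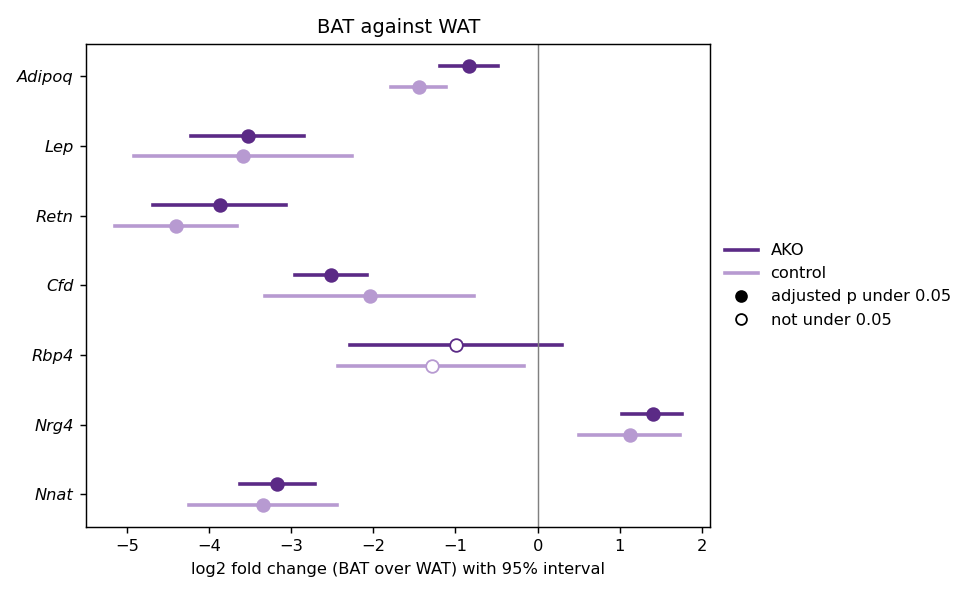
Log2 fold change of BAT over WAT for each gene in AKO and in control libraries, with 95% intervals from the edgeR fits and filled symbols where the adjusted p was under 0.05. Nrg4 lies to the right of 0 in both genotypes, 5 genes lie to the left with filled symbols, and Rbp4 has open symbols.

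None of the 7 genes passed the test between AKO and control in either depot. The comparison asks how loss of Mcu in fat alters its transcripts under a high-fat diet. Over the whole table the same fits called 0.0771% in BAT (11 of 14265 genes tested) and 0.0189% in WAT (3 of 15915), although 13.6% and 22.6% had an unadjusted p under 0.05. Of the 7 genes, 2 in BAT (Nrg4 and Nnat) and 1 in WAT (Lep) had an unadjusted p under 0.05. The count of all genes called moved widely with the fit: in WAT it was 1030 with all 12 libraries in 1 fit, 1679 with DESeq2 and 1649 without WAT control replicate 2, and in BAT it was 278 with DESeq2. The values below are therefore descriptions of these libraries with their intervals.

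Lep had about the same log2 fold change in both depots, -1.04 ± 0.474 (SE; 95% interval -2.15 to 0.08) in BAT and -1.05 ± 0.343 (-1.87 to -0.22) in WAT, with edgeR adjusted p of 0.391 and 0.159. As group means, BAT AKO had 131 ± 30.9 CPM against 271 ± 185 CPM in BAT control, and WAT AKO had 1588 ± 457 CPM against 3243 ± 1122 CPM in WAT control (SD, n = 3 each). In WAT all 3 AKO libraries, with a highest value of 1896 CPM, lay below all 3 controls, with a lowest value of 2310 CPM. In BAT the groups overlapped, because BAT control replicate 2 at 113 CPM was below 2 of the 3 AKO libraries. In both depots control replicate 3 had the highest Lep. Leaving it out gave -0.35 in BAT (adjusted p = 0.772) and -0.74 in WAT (adjusted p = 0.35). DESeq2 called Lep lower in WAT (adjusted p = 0.015).

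Cfd had a log2 fold change of 0.45 ± 0.354 in BAT (95% interval -0.38 to 1.29, edgeR adjusted p = 0.585) and 0.97 ± 0.419 in WAT (-0.04 to 1.98, adjusted p = 0.232). WAT AKO averaged 2473 ± 115 CPM against 1251 ± 637 CPM in WAT control, and BAT AKO 411 ± 93.1 CPM against 305 ± 144 CPM in BAT control. All WAT AKO libraries lay above all WAT controls, whereas the BAT groups overlapped. Control replicate 3 had the lowest Cfd in both depots, and without it the log2 fold change was 0.14 in BAT (adjusted p = 0.886) and 0.60 in WAT (adjusted p = 0.238). Set against each other within a library, the ratio of Lep to Cfd in CPM was 0.364, 0.198 and 0.449 in BAT AKO against 0.720, 0.254 and 3.01 in BAT control, and 0.693, 0.786 and 0.443 in WAT AKO against 1.87, 1.39 and 8.67 in WAT control. In white fat the ratio was below 1 in every AKO library and above 1 in every control library, and control replicate 3 had the highest ratio of its depot in both tissues. That separation and the place of replicate 3 follow from the Lep and Cfd values already given, and the ratio was not tested.

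**Figure D3:**
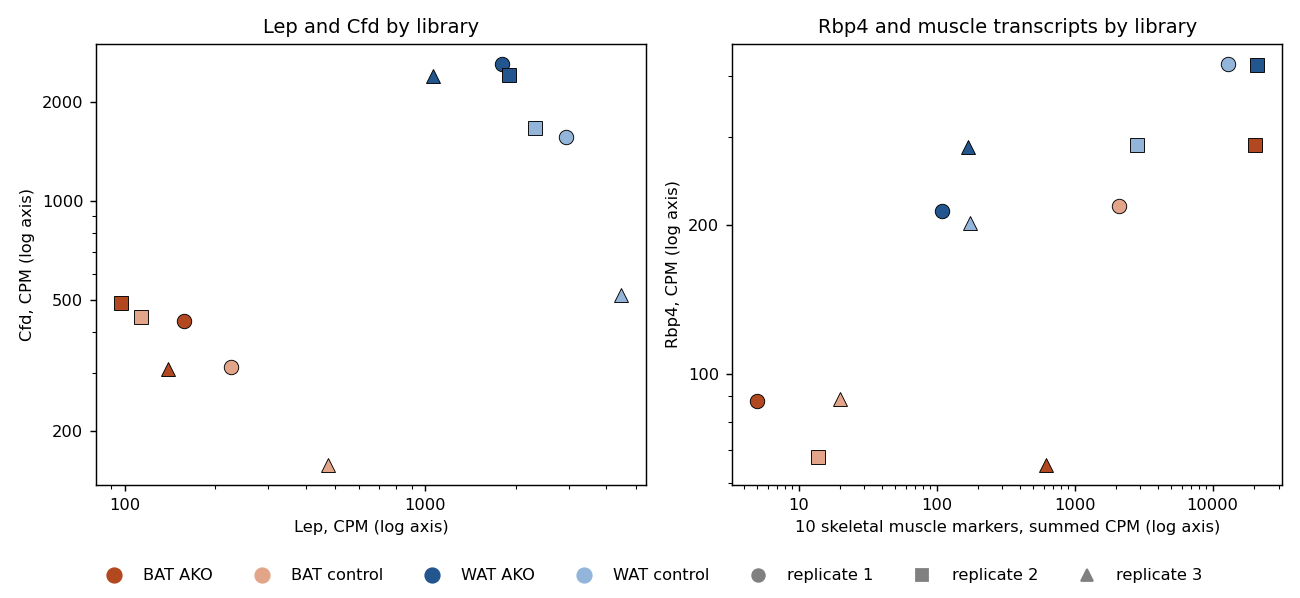
Left, Cfd against Lep in CPM (both axes logarithmic) for the 12 libraries. Right, Rbp4 against the summed CPM of 10 skeletal muscle markers (both axes logarithmic). Control replicate 3 of each depot stands apart with high Lep and low Cfd, and the highest Rbp4 value of each group belongs to its library with most muscle transcripts.

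Adipoq ran in different directions in the 2 depots without passing in either. It averaged 951 ± 51.5 CPM in BAT AKO against 851 ± 77.8 CPM in BAT control, and 1778 ± 289.6 CPM in WAT AKO against 2316 ± 224 CPM in WAT control. The log2 fold change was 0.18 ± 0.0931 in BAT (95% interval -0.04 to 0.40, edgeR adjusted p = 0.43) and -0.40 ± 0.185 in WAT (-0.84 to 0.05, adjusted p = 0.254). In WAT every AKO library was below every control library, and in BAT the AKO replicate 3 at 892 CPM lay between the controls. The difference between the depots' AKO effects was 0.54 ± 0.188 and did not pass (edgeR adjusted p = 0.172), while DESeq2 called it (0.60, adjusted p = 0.0366). Beside this, the 12 adipocyte markers, which hold none of the 7 genes, had 9 positive and 3 negative log2 fold changes in BAT (median 0.12) and 4 positive and 8 negative in WAT (median -0.12), none called. The kininogen gene Kng1, near Adipoq on chromosome 16, was at 12.5 to 23.2 CPM in BAT AKO against 0.141 to 0.219 CPM in BAT control. It was called higher in BAT AKO (log2 6.63 ± 0.35, edgeR adjusted p = 0.00284), a difference that Adipoq did not show. With 2, 2 and 3 counts in the BAT control libraries, Kng1 passed the filter on low counts through BAT AKO. The size of its fold change rests on those few counts.

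Nrg4 and Nnat were the members with the smallest p in brown fat. Nrg4 averaged 127 ± 8.70 CPM in BAT AKO against 96.1 ± 14.6 CPM in BAT control, a log2 fold change of 0.43 ± 0.12 (95% interval 0.14 to 0.71, edgeR adjusted p = 0.273). Nnat averaged 126 ± 29.3 CPM against 81.8 ± 10.9 CPM, a log2 fold change of 0.65 ± 0.19 (0.20 to 1.09, edgeR adjusted p = 0.281). For both genes all 3 BAT AKO libraries lay above all 3 BAT control libraries, though for Nnat the lowest AKO library, at 93.6 CPM, was barely above the highest control, at 93.1 CPM. DESeq2 called Nnat higher in BAT (adjusted p = 0.0374). In WAT the groups overlapped for both: Nrg4 was at 50.7 ± 10.3 CPM in WAT AKO against 43.8 ± 14.0 CPM in WAT control (0.19 ± 0.269, adjusted p = 0.69), and Nnat at 1183 ± 42.4 CPM against 822 ± 385 CPM (0.51 ± 0.345, edgeR adjusted p = 0.403). WAT control replicate 3 was the lowest of the 6 white fat libraries for both, and without it the WAT log2 fold changes were -0.05 for Nrg4 and 0.20 for Nnat.

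Retn and Rbp4 gave no separation in either depot. Retn averaged 40.1 ± 17.0 CPM in BAT AKO against 26.8 ± 9.88 CPM in BAT control and 613 ± 98.5 CPM in WAT AKO against 564 ± 102 CPM in WAT control, with log2 fold changes of 0.60 ± 0.362 in BAT and 0.10 ± 0.193 in WAT (edgeR adjusted p = 0.48 and 0.777). Rbp4 averaged 147 ± 123 CPM in BAT AKO against 125 ± 81.1 CPM in BAT control and 307 ± 105 CPM in WAT AKO against 304 ± 111 CPM in WAT control. The 95% interval of its log2 fold change ran from -1.24 to 1.79 in BAT and from -0.82 to 0.82 in WAT.

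Counted over the 7 genes, the AKO and control libraries did not overlap for 2 in BAT (Nrg4 and Nnat, both higher in AKO) and for 3 in WAT (Cfd higher, Lep and Adipoq lower in AKO). Over all genes tested the groups did not overlap for 19.7% in BAT (8.19% higher in AKO) and 30.4% in WAT (15.9% higher and 14.5% lower in AKO), so separation of this kind was common in the whole table. The median log2 fold change of the 7 was 0.43 in BAT and 0.10 in WAT, against 0.01 over all genes in both. No member's AKO effect differed between the depots by the edgeR test of the difference, in which 0.275% of all genes were called. At an unadjusted p under 0.05 the test picked out Adipoq, as it did 18.4% of all genes. For Lep that difference was -0.02 ± 0.634, with a 95% interval from -1.42 to 1.38. Beside the WAT values, B lymphocyte markers summed to 273 to 642 CPM in WAT AKO and 1.36 to 224 CPM in WAT control, and T lymphocyte markers to 55.0 to 102 and 1.70 to 55.2 CPM. Macrophage markers summed to 736 to 930 CPM in WAT AKO and 757 to 1122 CPM in WAT control, a sum to which Lyz2 added most (mean 477 and 419 CPM). Of these 7 markers 6 were negative (median log2 fold change -0.87) and 4 were apart, such as Trem2 at 3.33 to 5.33 CPM in WAT AKO against 15.1 to 25.1 CPM in WAT control, with none called. Progenitor markers summed to 719 to 750 CPM in WAT AKO and 815 to 1320 CPM in WAT control, with 5 of 5 negative (median -0.80) and none called. The part of these cell types in the WAT values was not tested.

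**Figure D4:**
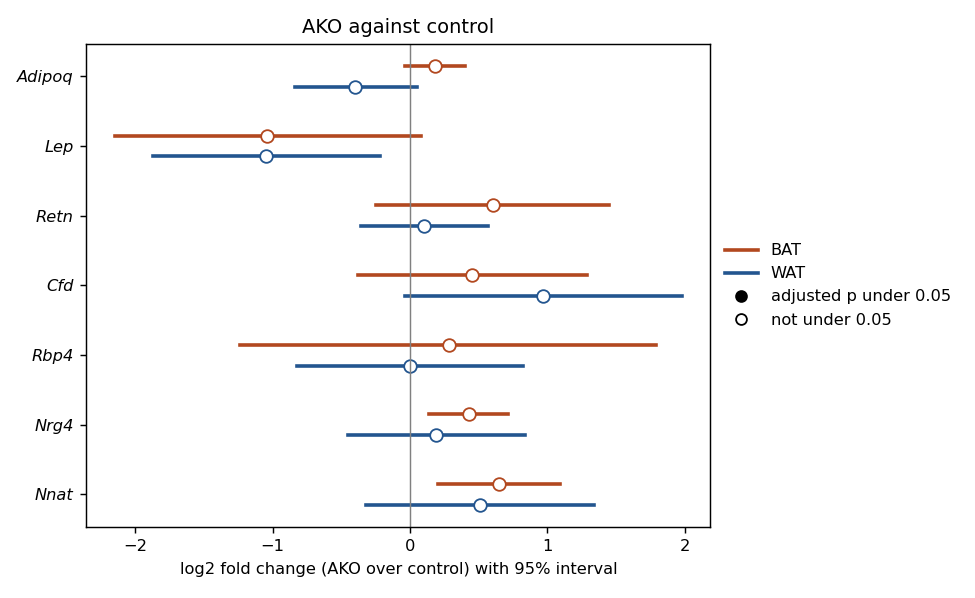
Log2 fold change of AKO over control for each gene in BAT and WAT, with 95% intervals from the edgeR fits. All symbols are open, since no adjusted p was under 0.05, and Lep lies near -1 in both depots.

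The receptors of these hormones, the factors that fold them and the regulators of their genes also gave 0 calls between AKO and control in either depot. Among 11 receptor genes in WAT, 4 log2 fold changes were positive and 7 negative (median -0.15). Lepr was at 8.04 to 12.8 CPM in WAT AKO against 1.60 to 5.35 CPM in WAT control (1.76 ± 0.488, edgeR adjusted p = 0.13). Stra6, which encodes the cell-surface receptor for retinol-bound Rbp4, was at 0.896 to 2.57 CPM against 0.0505 to 0.335 CPM (3.21 ± 0.644, adjusted p = 0.0945). C3ar1, the receptor for the complement fragment C3a, was at 9.21 to 12.6 CPM against 24.0 to 38.4 CPM (-1.43 ± 0.221, edgeR adjusted p = 0.0749). Stra6 had 12 counts over the WAT control libraries and passed the filter on low counts through WAT AKO. In all, 5 of the 11 receptors were apart between the WAT groups, set against 30.4% of all genes: these 3, Erbb4 (1.19 to 1.99 CPM in WAT AKO against 0.353 to 0.852 CPM in WAT control) and the complement receptor C5ar2 (0.596 to 0.691 against 0.702 to 2.34 CPM). Lepr, Stra6 and Erbb4 were higher in AKO, and C3ar1 and C5ar2 lower. Erbb4 had 39 counts over the WAT control libraries and, like Stra6, passed the filter on low counts through WAT AKO. In BAT, Erbb4 was at 5.44 to 8.14 CPM in AKO against 2.55 to 4.58 CPM in control (0.98 ± 0.261, edgeR adjusted p = 0.264), the receptor with the smallest p of the 7 tested.

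Adiponectin is hydroxylated on collagen lysines by the Plod enzymes and assembled with Erp44 and Ero1 in the endoplasmic reticulum. Of 10 such folding and secretion genes, 8 in BAT and 9 in WAT had negative log2 fold changes (medians -0.21 and -0.41), and none was called. Plod3 was at 50.9 to 63.3 CPM in BAT AKO against 73.1 to 78.0 CPM in BAT control, and at 104 to 124 CPM in WAT AKO against 161 to 226 CPM in WAT control (-0.36 and -0.79, edgeR adjusted p = 0.27 and 0.0945). Plod1 and Plod2 were likewise apart in both depots, with WAT log2 fold changes of -0.74 and -1.08 (edgeR adjusted p = 0.118 and 0.159), whereas Erp44 overlapped in both (0.06 in BAT and -0.05 in WAT). In all, 5 of the 10 genes were apart in BAT and 7 in WAT, beside 19.7% and 30.4% of all genes tested. In WAT 5 of 5 progenitor markers were negative too, and the part of those cells in these values was not tested. Of 12 transcriptional regulators, Pparg, the nuclear receptor that drives adipocyte gene expression, overlapped in both depots, at 325 to 421 CPM in BAT AKO against 344 to 385 CPM in BAT control and 115 to 142 CPM in WAT AKO against 138 to 163 CPM in WAT control. Cebpa, whose factor binds the Lep promoter, also overlapped in both (log2 0.24 in BAT and -0.22 in WAT, edgeR adjusted p = 0.352 and 0.536). Fosl2, an AP-1 factor known to act on Lep, was at 30.4 to 38.1 CPM in BAT AKO against 47.9 to 64.1 CPM in BAT control (-0.66 ± 0.135, edgeR adjusted p = 0.225), and overlapped in WAT. In WAT the regulator with the smallest p was Atf3, a stress-induced repressor, the only one of the 12 that was apart there, at 3.30 to 4.41 CPM in WAT AKO against 7.17 to 14.1 CPM in WAT control (-1.55 ± 0.282, edgeR adjusted p = 0.0846). In the retinoid handling list, 4 genes were tested and none called: Dhrs3, a retinal reductase, was at 131 to 172 CPM in WAT AKO against 189.9 to 246 CPM in WAT control (-0.59 ± 0.152, edgeR adjusted p = 0.123).

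Each member had its own set of genes with similar patterns over the 12 libraries, measured as Pearson's r of log2 CPM centred within each depot, among genes with a mean of at least 10 CPM. For Lep the closest were Lox (r = 0.975), the lysyl oxidase that crosslinks collagen, Serpina3n (0.973), a serine protease inhibitor, and Twf1 (0.956), an actin-binding protein. For Cfd they were Celsr2 (0.968), Slc27a1 (0.96), a fatty acid transporter, and Ring1 (0.94). Adipoq was followed most closely by Oxct1 (0.932), the enzyme that starts ketone body use, Selenop (0.927), a secreted selenium carrier, and Slc35f5 (0.924). Nrg4 had Nfu1 (0.944), an iron-sulphur cluster scaffold of mitochondria, Lgals12 (0.92), an adipocyte galectin, and Bhlhe41 (0.901). Retn had Ccl27a (0.951), Ephb6 (0.946) and Inca1 (0.918), and Nnat had Glrx2 (0.945), Sugp2 (0.923) and Wnt11 (0.918). Rbp4 stood apart in its closest genes, which were Prr33 (0.92), Myh7 (0.885) and Lmod2 (0.885). Myh7 is the slow skeletal and cardiac myosin heavy chain, and Lmod2 a leiomodin of striated muscle. Within a depot, with 6 libraries each, r could differ. It was 0.968 in BAT and 0.586 in WAT for Rbp4 and Myh7, and 0.699 in BAT and 0.98 in WAT for Adipoq and Oxct1. All genes of a library share its depth, group and tissue sample, so the r values describe likeness of pattern in these 12 libraries.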

How the data were processed

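Sequencing covered polyadenylated RNA in 12 libraries of brown and inguinal white fat, grouped by the tissue and genotype in the sample titles. The authors deposited raw read counts per Ensembl gene. The deposited FPKM values are those counts per gene length and library total, as a comparison with the counts showed. Build mm10 and the programs HTSeq 0.6.0, HISAT2 2.1.0 and Bowtie2 2.2.3 are listed, per the submitters' processing notes. Neither the strand setting nor the annotation release is given in the sources used here. Positions come from the GENCODE annotation of GRCm38 and promoters from RefSeq GRCm38.p6.

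Counts were tested with the quasi-likelihood test of edgeR 4.0.16 in R 4.3.3 (TMM, filterByExpr with a minimum count of 10 and total of 15, Benjamini-Hochberg over all genes tested, threshold 0.05), each comparison on its own groups and the difference of AKO effects on all 12 libraries. All 7 members passed the filter in every comparison. The procedure was tested on simulated counts with 200 genes changed by an absolute log2 fold change of 2. Between 81.5% and 97.5% of these were recovered, and 6.44% to 8.43% of the calls were false, above the threshold of 0.05. Smaller changes, such as those of the members between AKO and control, were not simulated. The 200 genes were drawn only from genes with higher mean counts, so recovery of low-count genes such as Stra6 and Nrg2 was not simulated. Alternatives were RLE factors, no filter, DESeq2 1.42.0, a fit of all libraries, a replicate block, each library left out, and the most muscle-rich library of each group left out. Same-numbered libraries of the 2 depots and the same genotype deviated together (r of deviations from group means over genes 0.567, 0.676 and 0.136 in AKO and 0.517, 0.238 and 0.45 in controls). For unlike numbers r ran from -0.648 to 0.431 in AKO and from -0.463 to 0.0737 in controls. No label pairs the depots, so the reported depot fits and the difference of AKO effects had no block. The replicate block was used only as an alternative. The genes, lists and comparisons were chosen with earlier results of these data known. From the pathway lists, genes that were called or had the smallest p were named, and for each member the 3 most similar genes. Adipor2, Cdh13, Pparg, Cebpa, Erp44 and the untested or barely detected Nrg1, Nrg3 and Cfb were named for their known roles after their values were seen. No protein sequence was used here.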

Additional observations from a re-analysis of the deposited data

How the results depend on the processing

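No member was called between AKO and control by edgeR under any alternative, and DESeq2 called Lep in WAT and Nnat in BAT. Over all genes, the count called was 3 in WAT and became 277 without a filter, 1679 with DESeq2, 1030 with all 12 libraries in 1 fit, 0 with the replicate block, 0 without the most muscle-rich libraries, and 1 to 1649 with a library left out (1649 without WAT control replicate 2). In BAT it was 11 and became 33 without a filter, 278 with DESeq2, 1 with the replicate block, 2 without the muscle-rich libraries, and 0 to 95 with a library left out. Between BAT control and WAT control, 4763 in place of 7524 were called without the muscle-rich libraries. For the difference of effects, 45 became 132 without a filter, 965 with DESeq2, 0 without the muscle-rich libraries, 2 to 923 with a library left out (923 without WAT control replicate 2), and 261 with a replicate block within genotype, chosen after seeing the data. AKO and control libraries of the same number did not deviate together (r in WAT -0.472, -0.0185 and 0.219, in BAT -0.615, -0.288 and 0.114). Some signs turned. Rbp4 in WAT, -0.00, became 0.0056 with RLE and with DESeq2, 0.0133 with all libraries and 0.0127 with the replicate block, and Rbp4 in BAT became -0.0315 without the muscle-rich libraries. The Lep difference of effects became 0.0422 with RLE, 0.0169 without a filter, 0.0421 with DESeq2, 0.29 without the muscle-rich libraries and 0.181 with the block within genotype. That of Nnat became -0.0324 with the replicate block and -0.0438 with the block within genotype, and that of Rbp4 -0.0254 without the muscle-rich libraries. With a library left out, WAT values ran from -0.32 to 0.30 for Rbp4, -0.0531 to 0.21 for Retn and -0.0507 to 0.35 for Nrg4, BAT Rbp4 from -0.69 to 0.94, and the difference of effects from -0.39 to 0.66 for Lep, -0.71 to 0.90 for Rbp4 and -0.28 to 0.40 for Nnat. Of all member values, 415 kept their direction and call. Scaling by library totals put the median log2 fold change of all genes at -0.60 (AKO) and -0.40 (controls) between the depots and at 0.14 in WAT, and FPKM, scaled that way, gave all 7 members the same depot direction as CPM. The causes were not tested.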

Other observations

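Of 29 other secreted factors of fat, 24 were tested in WAT, where AKO over control was negative for 20 and positive for 4 (median log2 fold change -0.72, against 0.01 over all genes, and 0 calls by the edgeR quasi-likelihood test). Inhbb, a subunit of activin B, was at 38.5 to 57.6 CPM in WAT AKO against 106 to 108 CPM in WAT control (-1.22 ± 0.148, edgeR adjusted p = 0.067). Metrnl, a meteorin-like hormone, was at 17.6 to 20.9 CPM against 32.5 to 45.5 CPM (-1.07 ± 0.143, edgeR adjusted p = 0.0706), and the secreted glycoprotein gene Fstl1 at 151 to 210 CPM against 302 to 421 CPM (-1.07 ± 0.198, edgeR adjusted p = 0.0872). All 6 tested C1q and TNF related genes, the paralogs of adiponectin, were negative in WAT, with a median of -0.62. In the same comparison 5 of 5 progenitor markers (median -0.80) and 6 of 7 macrophage markers (median -0.87) were negative too, and the part of those cells in these values was not tested. C1qtnf6 was at 22.1 to 26.5 CPM in WAT AKO against 37.1 to 42.3 CPM in WAT control (-0.71 ± 0.111, edgeR adjusted p = 0.0749). In BAT, 14 of 23 secreted factors were negative, with a median of -0.06.

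Between the depots, Sfrp5, a secreted Wnt inhibitor of white fat, was at 6.12 to 15.1 CPM in BAT AKO against 192 to 298 CPM in WAT AKO, and 5.42 to 8.05 CPM in BAT control against 384 to 492 CPM in WAT control (log2 -4.66 and -6.07, both called by edgeR). Ptgds, the lipocalin-type prostaglandin D synthase, was at 28.3 to 51.6 CPM in BAT AKO and 43.3 to 71.0 CPM in BAT control, and below 1 CPM in every white fat library.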
